A study of Mus musculus with 6 samples.

Results

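The 36 genes described here are macrophage identity genes. They were chosen by name from the 55487 genes of the count table, with earlier results of these data known. They encode lysozyme, the C1q subunits, surface receptors, Fc receptors with their adaptors, cytokine receptor chains and membrane and granule proteins of macrophages and other myeloid cells. They were read in 6 libraries of poly(A) RNA from mouse embryonic fibroblasts (MEFs) of wild-type genotype, which are grown out of minced embryos as primary cultures. MEFs at passage 1 (P1) were labelled non-senescent and MEFs at passage 6 (P6) senescent, a passage being one replating of the culture. Both were kept in DMEM with fetal bovine serum. Each passage was sequenced after 3 days with vehicle, with α-amyrin at 20 µM or with β-amyrin at 20 µM, as 1 library per treatment. The amyrins are plant triterpene alcohols and isomers, one an ursane and the other an oleanane, set apart by where 1 ring methyl group sits. No condition had a replicate library, and the labels do not say whether P6 and P1 cells came from 1 isolate, so passage and isolate cannot be told apart.

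Macrophages are tissue-resident phagocytes. In the mouse embryo they arise first from the yolk sac and then from the fetal liver, and they seed nearly every organ, so cells dispersed from an embryo can include them. They depend on CSF1 or IL-34 acting through the receptor CSF1R, and their gene programme is built on the transcription factor PU.1 (gene Spi1). Many of the genes here belong to that programme: receptors that bind antibody or complement, adaptors that carry the signalling motif ITAM, and the oxidase, lysozyme and perforin-like proteins that act on what has been engulfed. Some are not particular to macrophages: Ptprc, Coro1a, Cd53 and Laptm5 are found across leukocytes, and Cxcr4 is also expressed by stromal and progenitor cells.

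Total counts ran from 18798418 to 28752332 per library. Values below are CPM, read counts relative to library size, scaled between libraries by TMM, and are always given in the order vehicle, α-amyrin, β-amyrin. All 36 genes passed the filter on low counts that left 16962 genes for testing. By their share of reads, markers of fibroblasts stood far above those of macrophages. The 12 fibroblast genes of a fixed list summed to 44835, 36963 and 41606 CPM at P1 and 57227, 51348 and 57121 CPM at P6. The higher P6 sums rest on Fn1, which is also on the list of monocyte genes used below, and do not stand for the list. Fn1 was at 13589, 10795 and 11486 CPM at P1 and 30105, 28955 and 30466 CPM at P6. Col1a1 was at 15011, 11859 and 14229 CPM at P1 and 12622, 9338 and 11721 CPM at P6. The 36 macrophage genes summed to 495, 430.0 and 51.9 CPM at P1 and to 6747, 7019 and 4999 CPM at P6. They took 0.0494%, 0.0440% and 0.00514% of all counts at P1 and 0.669%, 0.703% and 0.494% at P6. The labelled cell type, fibroblast, matched these levels, and the macrophage genes were a minor part of the RNA. In such bulk samples fewer cells of a type and less RNA per cell cannot be told apart.

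Sequences upstream of the start site are shown for 5 members because PU.1 binds a purine-rich motif and many of the 36 genes belong to its programme. Promoters were taken from RefSeq on GRCm38.p6, the assembly of mm10, for the 27 members with an entry. The letters GAGGAAG, one form of the PU.1 core, were searched on both strands from 250 bases before to 50 bases after each start, and 11 of 31 member promoters (35.5%) held them against 13.6% of 32851 promoters of all genes. A C/EBP-type motif, TTGCNNAA, was in 3 of the 31 (9.68%) against 10.8% of all, and TATAAA in 5 (16.1%) against 13.6%. A match is a description of these letters, not of binding. The members were picked by name and many belong to the PU.1 programme, so their share is no evidence about these libraries. Whether PU.1 sets their levels here was not tested. Each sequence runs 5′ to 3′ on the coding strand and ends before the gene as annotated. Capitals mark GAGGAAG read on the opposite strand, as CTTCCTC. Lyz2 and C1qb are shown as members without a match, and C1qc, Fcgr1 and Csf2rb2 as members with one.
Lyz2 (chr10:117282322-117282522, minus strand): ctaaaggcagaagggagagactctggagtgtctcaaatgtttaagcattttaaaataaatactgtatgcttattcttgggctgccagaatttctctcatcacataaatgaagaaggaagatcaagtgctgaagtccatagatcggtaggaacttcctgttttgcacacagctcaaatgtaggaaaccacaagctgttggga
C1qb (chr4:136886201-136886450, minus strand): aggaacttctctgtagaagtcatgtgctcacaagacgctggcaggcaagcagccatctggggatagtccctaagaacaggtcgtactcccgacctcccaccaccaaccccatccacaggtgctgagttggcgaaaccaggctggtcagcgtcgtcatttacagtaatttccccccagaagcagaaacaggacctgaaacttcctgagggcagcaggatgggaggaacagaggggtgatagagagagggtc
C1qc (chr4:136893066-136893164, minus strand): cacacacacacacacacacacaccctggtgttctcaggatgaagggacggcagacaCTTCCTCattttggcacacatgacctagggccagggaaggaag
Fcgr1 (chr3:96293970-96294219, minus strand): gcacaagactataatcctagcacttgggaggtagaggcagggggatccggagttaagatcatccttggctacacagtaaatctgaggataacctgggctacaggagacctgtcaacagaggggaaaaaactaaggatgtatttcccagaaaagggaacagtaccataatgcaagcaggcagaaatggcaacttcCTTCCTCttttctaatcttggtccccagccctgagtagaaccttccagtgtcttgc
Csf2rb2 (chr15:78305722-78305971, minus strand): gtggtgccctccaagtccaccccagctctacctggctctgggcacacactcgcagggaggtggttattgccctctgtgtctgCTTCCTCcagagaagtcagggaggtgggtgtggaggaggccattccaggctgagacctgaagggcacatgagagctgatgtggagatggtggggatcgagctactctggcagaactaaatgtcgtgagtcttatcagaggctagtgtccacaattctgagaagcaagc

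Every one of the 36 genes was higher at P6 than at P1 in all 3 treatments. In the additive fit of treatment and passage over the 6 libraries, 36 of 36 were called higher at P6 (edgeR quasi-likelihood test, Benjamini-Hochberg adjusted p below 0.05 over all genes tested), where 30.0% of all genes tested were called higher. The lowest P6 library lay above the highest P1 library for 36 of 36, against 32.5% of all genes. The median log2 change was 4.06, against 0.0024 over all genes tested. It ran from 2.58 for the Fc receptor gene Fcgr1 to 5.53 for Fcgr2b, which ranked 489 and 13 from the highest among the 16962 genes. The labels do not tie the libraries to separate cultures or embryos, so these p-values measure only the spread among 6 libraries. The fit left 2 residual degrees of freedom per gene, and edgeR added a median of 4.83 from the spread over all genes. A treatment response that differs between passages counts as error in it. Because the 36 genes were chosen with earlier results of these data known, their counts against all genes are a description and no independent evidence.

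**Figure D1:**
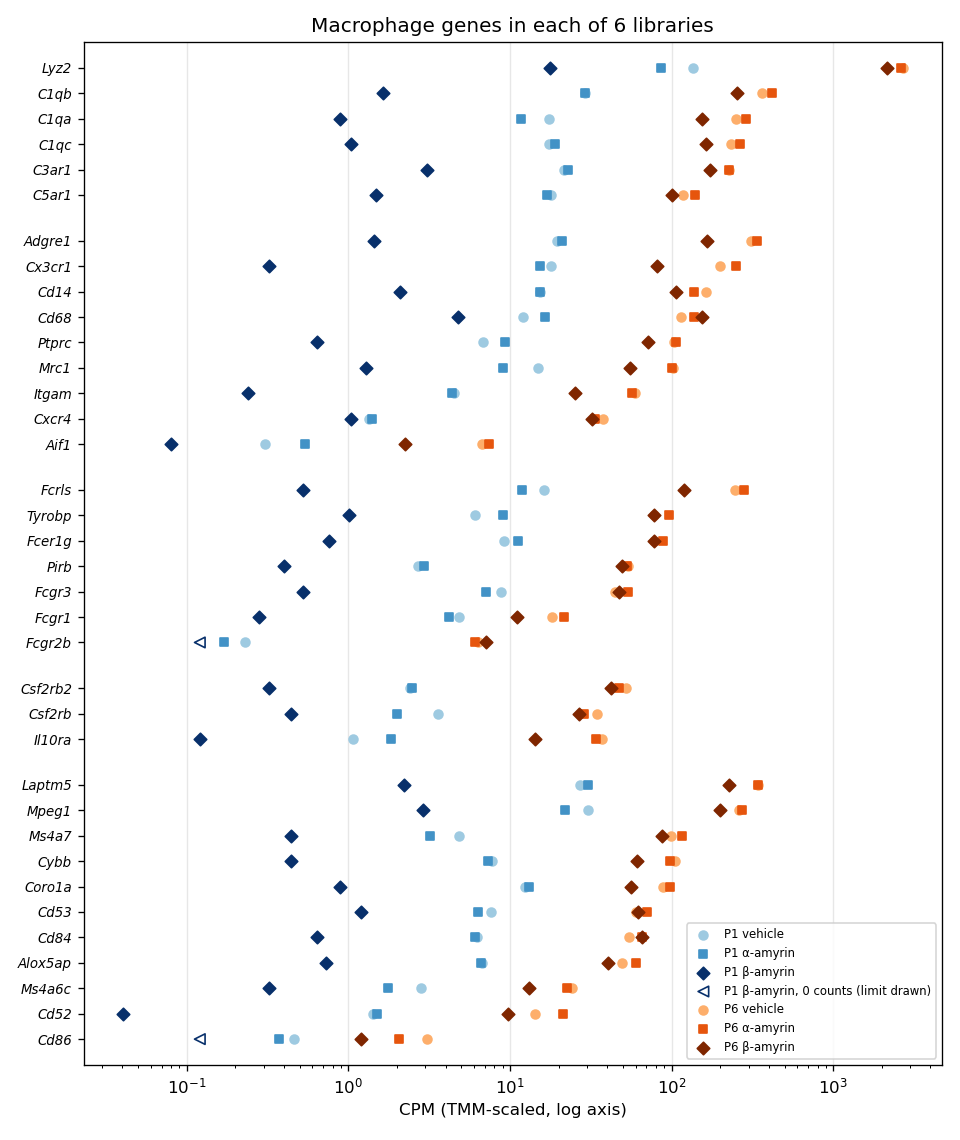
CPM of each of the 36 genes (rows, in role groups) in the 6 libraries on a log axis, blue for P1 and orange for P6, with open arrows at the limit that 0 counts allow. For every gene the 3 P6 points lie to the right of the P1 points, and the P1 β-amyrin point (dark blue diamond) is the lowest of the 6.

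The size of the P6 over P1 ratio was not the same in the 3 treatments. For single libraries, genes that differed by 2-fold or more were counted among those reaching 5 CPM in either library (eligible genes). With vehicle the median log2 ratio was 3.55 and 35 of 35 eligible members were past 2-fold higher, against 7.82% of all eligible genes; none was past 2-fold lower, against 5.36%. With α-amyrin the median was 3.63 with 35 of 35 higher (background 7.97%) and 0 lower (background 5.54%). With β-amyrin the median was 6.29, or 6.23 with the members at 0 counts set at their limit, with 34 of 34 higher (background 7.99%) and 0 lower (background 5.45%). A gene under 5 CPM at P1 was eligible only through its P6 library and could not count as lower. In the β-amyrin pair this held for every eligible member but Lyz2, so there the count of members lower was largely fixed by the filter. The vehicle and α-amyrin medians thus lay close together and the β-amyrin median well above them, and the values that set it apart were those of the P1 β-amyrin library.

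**Figure D2:**
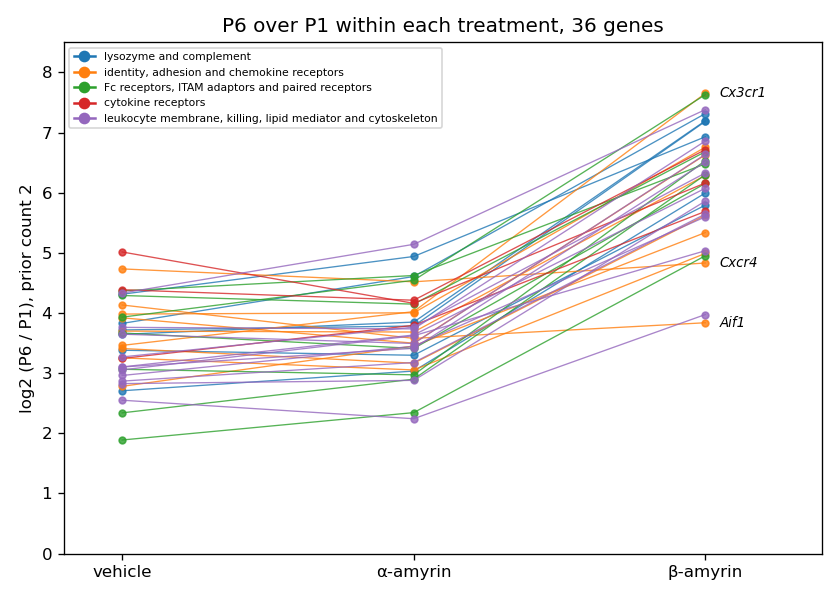
Log2 ratio of P6 over P1 for each of the 36 genes in vehicle, α-amyrin and β-amyrin libraries, with 1 line per gene coloured by role group. Between vehicle and α-amyrin the lines move by -0.85 to 0.81, the β-amyrin point is the highest of the 3 for 35 of 36 genes (not Aif1), and Cxcr4 runs from 4.73 over 4.52 to 4.83 and Aif1 from 4.13 over 3.58 to 3.84.

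Lysozyme and complement genes held the largest share of the members' reads among the 5 role groups, in each of the 6 libraries. Lyz2 (ENSMUSG00000069516, mm10 chromosome 10, 117277331 to 117282321), the lysozyme of macrophages and granulocytes, was at 136, 85.6 and 17.6 CPM at P1 and 2704, 2629.8 and 2159 CPM at P6. Scaled for length, it was at 106, 69.4 and 13.8 FPKM at P1 and 2100.2, 2058 and 1678 FPKM at P6, where it ranked 9, 10 and 11 among all genes. It held 27.5%, 19.9% and 34.0% of the members' counts at P1 and 40.1%, 37.5% and 43.2% at P6, so a sum over members is weighted towards this gene. Its passage change was 5.30 ± 0.49 (log2, SE; edgeR adjusted p = 0.000124).

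C1qa, C1qb and C1qc encode the chains of C1q, which starts the classical complement pathway and which macrophages make themselves. They lie next to each other on mm10 chromosome 4 (C1qa at 136895917 to 136898803, C1qc at 136889804 to 136893065, C1qb at 136880129 to 136886187). C1qa was at 17.6, 11.8 and 0.885 CPM at P1 and 250.3, 288 and 154 CPM at P6. C1qb was at 29, 29.2 and 1.65 CPM at P1 and 364, 421 and 254 CPM at P6. C1qc was at 17.6, 19.1 and 1.05 CPM at P1 and 232, 264 and 164 CPM at P6. In each chain the P1 β-amyrin library was lowest, the P1 vehicle and α-amyrin libraries came next, and the P6 β-amyrin library was the lowest of the P6 ones. The passage changes of the chains were 4.73 ± 0.45, 4.41 ± 0.53 and 4.35 ± 0.48 (log2, SE) for C1qa, C1qb and C1qc.

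The receptors for the complement fragments C3a and C5a behaved likewise. C3ar1, the C3a receptor, was at 21.6, 22.9 and 3.06 CPM at P1 and 226, 226 and 174 CPM at P6. C5ar1, the C5a receptor, was at 18.1, 17 and 1.49 CPM at P1 and 118, 139.8 and 100.1 CPM at P6. At P1 their β-amyrin values lay below both other libraries, by log2 ratios to vehicle of -2.79 (-3.19 to -2.48) and -3.53 (-4.13 to -3.12). Intervals on such ratios of single libraries are 95% exact intervals that cover counting error only. The genes carried passage changes of 3.90 ± 0.40 and 3.49 ± 0.46.

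Of the 36 members, 9 mark macrophage identity, adhesion or chemokine response. Adgre1, which encodes the F4/80 antigen, was at 19.6, 20.9 and 1.45 CPM at P1 and 312, 337 and 165 CPM at P6. Cx3cr1, the receptor for the chemokine CX3CL1 that is prominent in embryonic macrophages and microglia, was at 18, 15.3 and 0.322 CPM at P1 and 199, 250.4 and 81 CPM at P6. Cd14, the lipopolysaccharide co-receptor, was at 15.3, 15.3 and 2.09 CPM at P1 and 163, 138 and 107 CPM at P6. These followed the pattern of C1q, and Cx3cr1 had the lowest P1 β-amyrin over vehicle ratio of all members, -5.49 (-7.03 to -4.82), from 469, 451 and 8 counts at P1. Ptprc, the leukocyte phosphatase CD45, was at 6.79, 9.34 and 0.643 CPM at P1 and 104, 106 and 71.7 CPM at P6. Mrc1, the mannose receptor CD206, was at 14.9, 9.11 and 1.29 CPM at P1 and 103, 100.4 and 55.2 CPM at P6. Itgam, the CD11b chain of the integrin CR3, was at 4.53, 4.38 and 0.241 CPM at P1 and 59.7, 57.3 and 25.1 CPM at P6. All of them had the P6 β-amyrin library below the other P6 libraries.

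Others in this group departed from the rest in one library or another. Cd68, a lysosomal glycoprotein, was at 12, 16.5 and 4.78 CPM at P1 and 115, 137 and 155 CPM at P6, and at P6 its β-amyrin library was the highest. Cxcr4, the receptor for CXCL12, was at 1.34, 1.39 and 1.05 CPM at P1 and 37.8, 33.7 and 32 CPM at P6. Its 3 P1 libraries lay together, with 35, 41 and 26 counts, and its passage change of 4.76 ± 0.11 had the smallest SE of the 36 (edgeR adjusted p = 9.66e-07). Aif1, the actin-binding protein IBA1, was low throughout, at 0.307, 0.544 and 0.0804 CPM at P1 and 6.73, 7.38 and 2.23 CPM at P6, from 8, 16 and 2 counts at P1.

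Fc receptors bind antibody on the cell surface, activating ones signal through ITAM adaptors, and related paired receptors are described with them. Fcgr1, the high-affinity IgG receptor, was at 4.83, 4.21 and 0.281 CPM at P1 and 18.1, 21.7 and 11.1 CPM at P6 and had the smallest passage change of the 36, 2.58 ± 0.39. Fcgr3, an activating low-affinity receptor, was at 8.82, 7.10 and 0.523 CPM at P1 and 45, 53.5 and 47.5 CPM at P6. Fcgr2b, the inhibitory receptor, was at 0.230, 0.170 and 0 CPM at P1 and 6.35, 6.11 and 7.16 CPM at P6, from 6, 5 and 0 counts at P1. The inhibitory receptor was therefore close to the detection limit at P1, and its large passage change of 5.53 ± 0.42 rests on few P1 counts.

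The ITAM adaptors showed the same low P1 β-amyrin values. Fcer1g, the common Fc receptor γ chain, was at 9.24, 11.3 and 0.764 CPM at P1 and 77.9, 89 and 78.3 CPM at P6. Tyrobp, the adaptor DAP12, was at 6.10, 9.04 and 1.01 CPM at P1 and 78.4, 96.9 and 77.4 CPM at P6. Both had the P6 β-amyrin library level with P6 vehicle, with log2 ratios of 0.01 (-0.09 to 0.10) and -0.02 (-0.11 to 0.07). Pirb, an inhibitory receptor of the paired immunoglobulin-like family, was at 2.68, 2.92 and 0.402 CPM at P1 and 54.1, 53.1 and 49.5 CPM at P6. Fcrls, an Fc receptor-like scavenger molecule known from microglia, was at 16.2, 12 and 0.523 CPM at P1 and 249, 281 and 119.6 CPM at P6. Of this group only Fcrls was past 2-fold lower with β-amyrin at P6.

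Among cytokine receptor chains, Csf2rb, the chain shared by the receptors for GM-CSF, IL-3 and IL-5, was at 3.57, 2.0 and 0.442 CPM at P1 and 34.5, 28.9 and 26.9 CPM at P6. Csf2rb2, its mouse paralogue for IL-3, was at 2.42, 2.48 and 0.322 CPM at P1 and 52.2, 47.4 and 42.3 CPM at P6. Il10ra, the ligand-binding chain of the IL-10 receptor, was at 1.07, 1.83 and 0.121 CPM at P1 and 37.3, 34.2 and 14.4 CPM at P6, from 28, 54 and 3 counts at P1. Their passage changes were 3.97 ± 0.33, 4.78 ± 0.32 and 4.84 ± 0.27. At P6 the log2 ratio of β-amyrin over vehicle was -0.36 (-0.51 to -0.21) for Csf2rb and -0.30 (-0.42 to -0.18) for Csf2rb2, and -1.37 (-1.56 to -1.20) for Il10ra.

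The remaining members are membrane, killing, lipid mediator and cytoskeletal genes. Laptm5, a lysosomal membrane protein of haematopoietic cells, was at 27.2, 30.4 and 2.21 CPM at P1 and 342, 343 and 228 CPM at P6. Mpeg1, the pore-forming perforin-2, was at 30.2, 21.9 and 2.89 CPM at P1 and 260.3, 273 and 201 CPM at P6. Cybb, the catalytic gp91 subunit of the phagocyte NADPH oxidase, was at 7.71, 7.31 and 0.442 CPM at P1 and 106, 98.3 and 60.7 CPM at P6. They repeated the order seen for C1q. Coro1a, an actin-binding coronin of leukocytes, was at 12.4, 13.2 and 0.885 CPM at P1 and 88.3, 97.8 and 56.1 CPM at P6. Alox5ap, the protein that hands arachidonic acid to 5-lipoxygenase, was at 6.67, 6.59 and 0.724 CPM at P1 and 49.2, 60.3 and 40.2 CPM at P6. Both were lowest in the P1 β-amyrin library and, among P6 libraries, in β-amyrin.

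The tetraspan, SLAM and co-stimulatory genes were less uniform at P6. Ms4a7 was at 4.87, 3.19 and 0.442 CPM at P1 and 99.6, 116 and 87.2 CPM at P6 and its relative Ms4a6c at 2.84, 1.77 and 0.322 CPM at P1 and 24.2, 22.7 and 13.1 CPM at P6. Cd53, a tetraspanin of leukocytes, was at 7.63, 6.39 and 1.21 CPM at P1 and 60.0, 70.5 and 62.3 CPM at P6. Cd84, a SLAM-family receptor, was at 6.29, 6.08 and 0.643 CPM at P1 and 54.6, 65.6 and 66.1 CPM at P6. At P6 the β-amyrin library was above vehicle for Cd53 and Cd84, whereas at P1 it was the lowest for both. Cd52, a small glycosylphosphatidylinositol-anchored glycoprotein, was at 1.42, 1.5 and 0.0402 CPM at P1 and 14.4, 21.3 and 9.67 CPM at P6, from 37, 44 and 1 counts at P1. Cd86, the co-stimulatory ligand of CD28, stayed below 5 CPM everywhere, at 0.460, 0.374 and 0 CPM at P1 and 3.09, 2.07 and 1.19 CPM at P6, from 12, 11 and 0 counts at P1.

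In P1 cells the β-amyrin library stood apart from both others. It was the lowest of all 6 libraries for 36 of 36 members, against 20.9% of all genes tested, and below both other P1 libraries for 36 of 36, against 32.7%. The median log2 ratio of β-amyrin over vehicle was -3.24, with a range from -5.49 for Cx3cr1 to -0.34 for Cxcr4. Of the 23 eligible members 23 were past 2-fold lower, against 0.864% of eligible genes, which is 23 of the 100 genes past that fold, and 0 were past 2-fold higher, against 0.0345%. Only Lyz2 reached 5 CPM with β-amyrin. The other eligible members passed the limit only through vehicle, where they are high, and could not count as 2-fold higher. The counting interval lay below 0 for 34 of 36; the exceptions were Cxcr4 at -0.34 (-1.15 to 0.41) and Aif1 at -1.26 (-5.20 to 0.39). Fcgr2b and Cd86 had 0 counts with β-amyrin, at least 1.91-fold and 3.82-fold lower than vehicle when the library is set at its floor of 3 counts. In the same libraries the 12 fibroblast markers had a median log2 ratio of 0.03. The difference rests on 1 library, and no replicate checks it. In that library 22 of 36 members were under 1 CPM and 10 had fewer than 10 counts, among them Itgam, Fcgr1 and Cx3cr1.

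**Figure D3:**
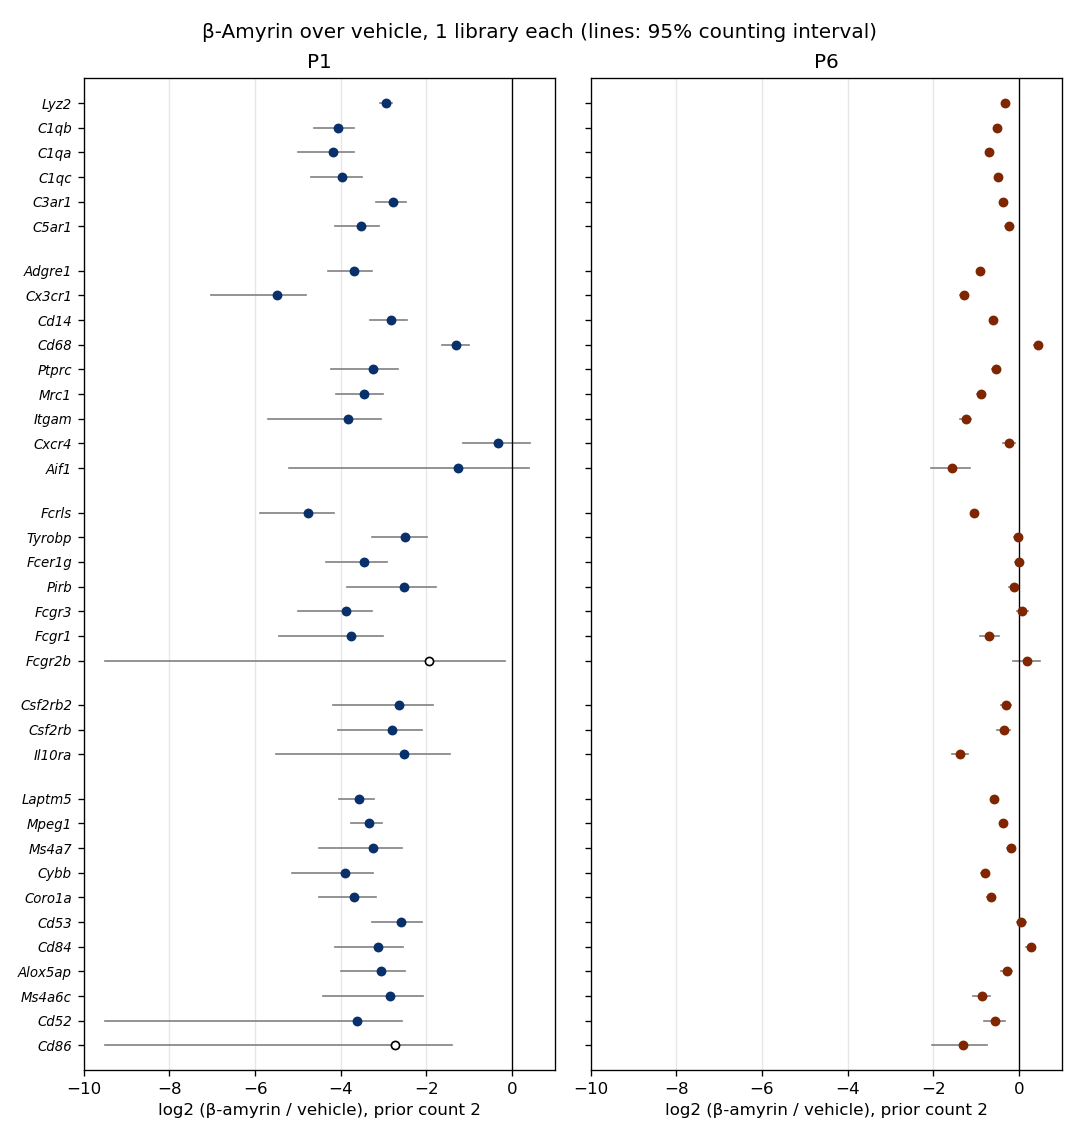
Log2 ratio of β-amyrin over vehicle for each of the 36 genes at P1 (left) and P6 (right), 1 library against 1, with lines for 95% counting intervals and open points for genes at 0 counts. At P1 the points centre on -3.24 and all lie below 0, while at P6 they centre on -0.51 and 6 lie above 0.

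In P6 cells the same comparison gave smaller ratios than at P1, most of them also below 0. The median log2 ratio of β-amyrin over vehicle was -0.51, with 30 members lower and 6 higher (Cd68, Cd84, Fcgr2b, Fcgr3, Cd53 and Fcer1g). Of 35 eligible members 5 were past 2-fold lower, against 0.646% of eligible genes. They were Aif1 at -1.56 (-2.06 to -1.15), Il10ra at -1.37 (-1.56 to -1.20), Cx3cr1 at -1.30 (-1.37 to -1.22), Itgam at -1.25 (-1.39 to -1.11) and Fcrls at -1.06 (-1.12 to -0.99). None was past 2-fold higher, against 0.226% of eligible genes. Cd68 at 0.43 (0.36 to 0.50) and Cd84 at 0.27 (0.17 to 0.38) had intervals above 0, and 29 members had intervals below 0. By role the P6 medians were -0.89 for identity and chemokine receptor genes, -0.57 for the membrane and oxidase group, -0.44 for lysozyme and complement, -0.36 for cytokine receptors and -0.02 for Fc receptors and adaptors. The ratio was more negative at P1 than at P6 for 35 of 36 members, the exception being Aif1. Across the 36 members the ratios at the 2 passages had a Spearman correlation of 0.35 and a Pearson correlation of 0.30; the members share libraries, so these are descriptions only.

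The difference between the β-amyrin ratios at the 2 passages was put into an interaction term. For it the vehicle and α-amyrin libraries of a passage were taken as 2 samples without β-amyrin, a grouping chosen with the low P1 values already known, so the test describes that pattern and is no independent evidence of it. The spread of β-amyrin libraries was thereby assumed equal to that between vehicle and α-amyrin. In this fit 25 of 36 members were called, all with a lower β-amyrin ratio at P1 than at P6, against 0.536% of genes tested called in that direction. The median difference, P6 minus P1, was 2.91 on the log2 scale, and 0.0059 over all genes tested. Called were 6 of 6 lysozyme and complement genes, 6 of 7 Fc receptor and adaptor genes, 5 of 9 identity genes, 7 of 11 membrane genes and 1 of 3 cytokine receptor genes.

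The largest called difference was that of Cx3cr1, 4.20 ± 0.42 (SE, edgeR adjusted p = 0.00652). C1qb had 3.51 ± 0.21 (edgeR adjusted p = 0.00162), and Lyz2 had 2.35 ± 0.34 (edgeR adjusted p = 0.0344). Lyz2 lost its call without the P6 vehicle library (2.38, edgeR adjusted p = 0.0560) and without the P6 α-amyrin library (2.33, edgeR adjusted p = 0.0578), while the other 24 called members kept theirs in the 4 fits that left out a vehicle or α-amyrin library. Tyrobp, at 2.73 and an edgeR adjusted p of 0.0489, lost its call with RLE factors (edgeR adjusted p = 0.0556) and with library totals (edgeR adjusted p = 0.0902). No fit could leave out a β-amyrin library, since each passage has 1. Cxcr4 had 0.23 ± 0.29 (edgeR adjusted p = 1.0) and Cd68 had 1.87 ± 0.29 (edgeR adjusted p = 0.0502), neither of them called. Also not called were Aif1, Cd52, Cd86, Csf2rb, Fcgr2b, Il10ra, Mrc1, Ms4a6c and Ms4a7. With limma on log2(FPKM + 1) 0 of 36 members and 0 of all genes were called in this comparison, and the term of Itgam, called on the counts, turned to -0.17. The pseudocount of 1 shrinks low values, and the median member was at 0.276 FPKM in the P1 β-amyrin library. Itgam itself was at 0.921, 0.930 and 0.0529 FPKM at P1 and 11.7, 11.2 and 5.04 FPKM at P6, lowest with β-amyrin in both passages.

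**Figure D4:**
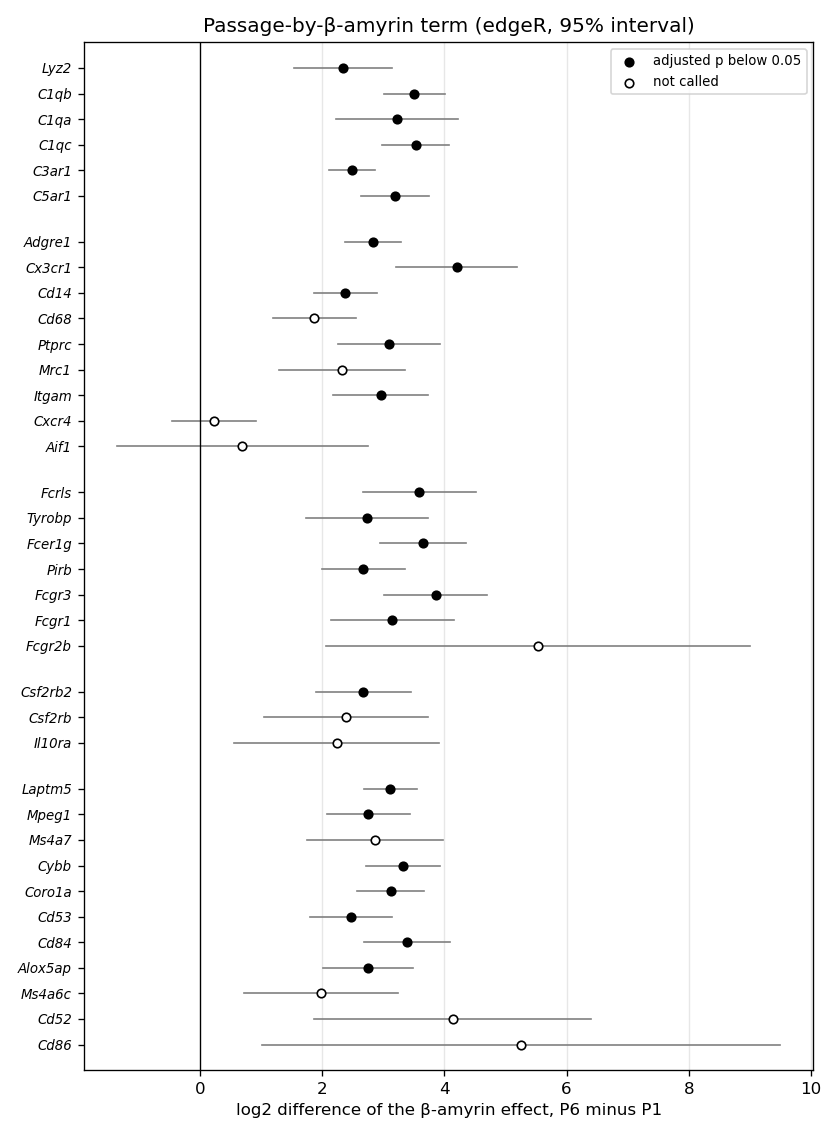
Passage-by-β-amyrin term of edgeR for each of the 36 genes, as the log2 difference of the β-amyrin effect at P6 minus P1 with 95% intervals, filled where the adjusted p was below 0.05. The 25 filled points lie between 2.35 and 4.20, and Cxcr4 and Aif1 are the points nearest 0.

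With α-amyrin, at the same dose and time, every member lay within 2-fold of vehicle. At P1 the median log2 ratio of α-amyrin over vehicle was -0.03, from -0.81 for Csf2rb to 0.73 for Il10ra, with 17 members higher and 19 lower. At P6 it was 0.12, from -0.56 for Cd86 to 0.57 for Cd52, with 23 higher and 13 lower. No member was past 2-fold in either passage, where 0.301% and 0.118% of eligible genes were higher and 0.18% and 0.244% lower. In the additive fit 0 of 36 members were called for α-amyrin (edgeR, background 0.0118% higher and 0.0177% lower). An unadjusted edgeR p below 0.05 was found for 0 members, against 11.8% of all genes tested. DESeq2 called 0 members, where 92 genes were higher and 102 lower, and limma called 0 members and 0 genes. The 95% intervals of the members reached from -1.67 to 1.57 on the log2 scale, so the fit does not show that α-amyrin and vehicle act alike. Without the P1 β-amyrin library, and again without the P6 one, 2 members, Cd68 and Tyrobp, were called higher with α-amyrin, where 0.984% and 1.01% of all genes were.

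Set against each other at the matched dose, the libraries of the isomers stood apart at P1, 1 library against 1. The median log2 ratio of α- over β-amyrin was 3.08 there and 23 of 23 eligible members were past 2-fold higher with α-amyrin, against 1.07% of eligible genes, and 0 were past 2-fold lower, against 0.0344%. All of these but Lyz2 were eligible only through the α-amyrin library and could not count as 2-fold lower. At P6 the median was 0.57 and 7 members were past that fold (Adgre1, Aif1, Cd52, Cx3cr1, Fcrls, Il10ra and Itgam), against 0.547%, with 0 lower, against 0.126%. In the additive fit, in which a response that differs between passages counts as error, 0 of 36 were called for α- minus β-amyrin (edgeR, background 0.0472% higher and 0.0118% lower). An unadjusted edgeR p below 0.05 was found for 18 members, against 9.21% of all genes tested. DESeq2 called 2 (Cd52 and Aif1), where 81 of all genes were higher and 38 lower, and limma called 0 members and 0 genes. The difference for Cx3cr1 was 2.06 ± 0.52 (95% interval 0.82 to 3.29, edgeR adjusted p = 0.313) and that for Lyz2 0.99 ± 0.51 (-0.23 to 2.21). With the P6 β-amyrin library left out, the median difference of the members was 3.59, against 0.0086 over all genes. With the P1 one left out it was 0.58, against 0.0049. The 1 β-amyrin library that remains is fitted exactly, so these fits measure no spread among β-amyrin libraries.

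β-Amyrin against vehicle in that fit likewise gave 0 of 36 called (edgeR, background 0.0059% higher and 0.0% lower). An unadjusted edgeR p below 0.05 was found for 17 members, against 10.3% of all genes tested. DESeq2 called 0 members, where 29 genes were higher and 85 lower, and limma called 0 members and 0 genes. All 36 estimates were negative, with a median of -1.17. Lyz2 had -1.40 ± 0.53 (95% interval -2.66 to -0.15) and Cd68 -0.08 ± 0.38 (-0.98 to 0.81). Without the P6 β-amyrin library the median of the members was -3.52, against -0.0062 over all genes. Without the P1 β-amyrin library it was -0.51, against -0.00067. Each of these fits holds 1 β-amyrin library, which is fitted exactly, so neither measures a spread among β-amyrin libraries. With both amyrins taken as 1 group, the passage-by-amyrin term called 0 of 36 members (edgeR, background 0.0% in each direction). An unadjusted edgeR p below 0.05 was found for 0 members, against 2.66% of all genes tested. DESeq2 called 0 members, where 4 genes were higher and 17 lower, and limma called 0 members and 0 genes. Without the P1 α-amyrin library, which leaves 1 amyrin library at P1, the median term of the members was 3.39, against 0.0064 over all genes.

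Genes that work with the members were read from fixed lists, where calls at P6 stand against the 30.0% higher and 29.1% lower of all genes tested. Calls in the passage-by-β-amyrin test, all in the direction of the members, stand against 0.536%. Csf1r, the receptor on which macrophage survival depends, was at 51.9, 51.2 and 9.93 CPM at P1 and 573, 520.0 and 240.4 CPM at P6, a passage change of 3.73 ± 0.22 (edgeR adjusted p = 2.32e-05). Its ligands differed from it: Csf1 was at 345, 319 and 386 CPM at P1 and 336, 325 and 359 CPM at P6 and was not called (-0.04 ± 0.05, edgeR adjusted p = 0.481), and Il34 was at 1.27, 1.36 and 1.49 CPM at P1 and 2.12, 2.71 and 2.87 CPM at P6 and was called higher at P6 by 0.90. The receptor, but neither ligand, was called in the passage-by-β-amyrin test, with 1.19 ± 0.16.

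Of 14 macrophage transcription factor genes, 11 were called higher and 1 lower at P6. In the passage-by-β-amyrin test 2 were called, Spi1 and Irf8, against 0.536% of all genes tested. Bach1, Id3 and Maf had the highest CPM, which is not scaled for length. Bach1, a repressor of haem and antioxidant genes, was at 107, 96.9 and 110.0 CPM at P1 and 73.9, 80.6 and 78.5 CPM at P6 and was the gene that fell. Id3, an inhibitor of helix-loop-helix factors, was at 77.7, 80.2 and 90.5 CPM at P1 and 91.9, 96.5 and 98.6 CPM at P6, and Maf, a leucine zipper factor, at 41.5, 54.3 and 36.3 CPM at P1 and 99.5, 114 and 69 CPM at P6. At P1 the β-amyrin value of Bach1 was the highest of the 3 libraries and that of Maf the lowest. Spi1, singled out after its values were seen because it encodes PU.1, was at 7.82, 8.09 and 0.643 CPM at P1 and 71.5, 70.9 and 45.6 CPM at P6, with a passage change of 3.63 ± 0.38 and a passage-by-β-amyrin term of 2.98 ± 0.23 (edgeR adjusted p = 0.00241).

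Of 16 genes of ITAM signalling and phagocytic receptors 14 were tested, and 13 were called higher and 1 lower at P6. The receptor tyrosine kinase gene Axl, also a fibroblast gene, was at 657, 629 and 683 CPM at P1 and 433, 449 and 503 CPM at P6 and was the one that fell. Sirpa, the receptor for CD47, was at 72.6, 82 and 32.2 CPM at P1 and 410.2, 485 and 384 CPM at P6, and Stab1, a scavenger receptor, at 40.5, 29.6 and 3.50 CPM at P1 and 272, 288 and 153 CPM at P6. In the passage-by-β-amyrin test 5 of this list were called, against 0.536% of all genes tested. All 9 integrin and oxidase partners were called higher at P6 and 3 were called in the interaction test, against 0.536% of all genes tested. Itgb2, the CD18 chain that pairs with Itgam, was at 9.09, 7.71 and 0.844 CPM at P1 and 115, 109 and 99.8 CPM at P6. Itgb1, at 2199, 1869 and 2149 CPM at P1 and 2772, 2636 and 2863 CPM at P6, and Cyba, which pairs with Cybb, at 49.5, 54.3 and 43.8 CPM at P1 and 106, 114 and 117 CPM at P6, were not called in the interaction test. Of 13 co-receptors and enzymes that pair with members 12 were tested, with 11 called higher at P6 and 0 in the interaction test; those of highest CPM were Lta4h at 69.4, 57.3 and 63.2 CPM at P1 and 60.1, 61.1 and 61.5 CPM at P6, Cd80 at 25.4, 27.8 and 30.6 CPM at P1 and 48.7, 58.7 and 55.8 CPM at P6 and Il10rb at 18.7, 22 and 19 CPM at P1 and 43.2, 49.5 and 47.5 CPM at P6.

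Ligands of the members gave calls near the share over all genes. Of 10 ligand genes 5 were tested, 2 were called higher and 1 lower at P6, against 30.0% and 29.1% of all genes, and 0 in the interaction test. Cxcl12, the ligand of Cxcr4, was at 474, 522 and 488 CPM at P1 and 556, 598 and 599 CPM at P6, Icam1, a ligand of β2 integrins, at 39, 49.7 and 38.2 CPM at P1 and 33.5, 34.3 and 31.4 CPM at P6, and Cx3cl1, the ligand of Cx3cr1, at 28.9, 20.4 and 28.6 CPM at P1 and 30.3, 22.5 and 26.9 CPM at P6. Csf2 and Il3, whose receptors use the Csf2rb chains, had 0 counts in all 6 libraries.

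Markers of other blood cells were mostly at or near 0, and their part in the members' differences was not tested. Of 5 B cell and 6 NK cell genes 0 were tested, and the NK cell genes Ncr1, Nkg7, Gzma and Klrk1 had 0 counts throughout. T cell genes summed to 2.45, 1.33 and 2.25 CPM at P1 and 0.550, 0.531 and 0.398 CPM at P6, with 0 counts for Cd3e and Cd3d and 2 of 7 genes called lower. Of 8 neutrophil genes 1 was tested and called higher, Csf3r, at 0.0384, 0.102 and 0.0804 CPM at P1 and 1.35, 2.12 and 1.63 CPM at P6; the list summed to at most 2.18 CPM and Elane was at 0 counts. Mast cell and basophil genes summed to 2.92, 2.55 and 2.09 CPM at P1 and 5.80, 9.56 and 10.1 CPM at P6, with Cpa3, Mcpt4, Tpsb2 and Fcer1a at 0 counts, 1 of 7 called higher and 1 lower. The 4 globin genes of the erythroid list, Hba-a1, Hba-a2, Hbb-bs and Hbb-bt, had 0 counts. Of 5 megakaryocyte and platelet genes 3 were called higher, with Gp9 at 0 counts and a sum of 7.75, 7.54 and 7.08 CPM at P1 and 19.4, 19.5 and 15.2 CPM at P6.

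Markers of macrophage subtypes and of neighbouring lineages were called in both directions at P6, against 30.0% of all genes tested higher and 29.1% lower. Of 6 monocyte genes 3 were tested, 2 were called higher and 1 lower; the one of highest CPM, Fn1, is a fibroblast gene. Of 6 microglia genes 5 were tested, 3 were called higher and 1 lower, with Siglech at 0 counts. Of 8 genes of Kupffer, serosal and other resident macrophages 2 were tested, 1 was called higher and 1 lower. The higher one was Folr2, the folate receptor β of resident macrophages, at 2.11, 3.50 and 0.684 CPM at P1 and 31.6, 50.4 and 27.3 CPM at P6. Folr2 does not stand for the list, as Gata6, the only other gene tested, went the other way. Gata6 was at 22.6, 22.7 and 23.2 CPM at P1 and 4.57, 4.62 and 4.81 CPM at P6. Unlike the members, Gata6 was not lowest in the P1 β-amyrin library. Clec4f, the Kupffer cell lectin, had 0 counts. Dendritic cell genes summed to 8.40, 8.05 and 9.37 CPM at P1 and 7.40, 7.27 and 7.20 CPM at P6, with Cd209a at 0 counts, and of 10 genes 5 were tested, 2 called higher and 1 lower. Of 7 osteoclast genes 4 were tested, 1 was called higher and 1 lower, and Ctsk, the one of highest CPM, was at 54.2, 55.1 and 53.7 CPM at P1 and 40.7, 46.5 and 50.2 CPM at P6. No gene of these lists was called in the passage-by-β-amyrin test.

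Few markers of macrophage activation were high enough to be tested, 4 of 14, and their calls at P6 are to be read against 30.0% of all genes higher and 29.1% lower. Of 7 inflammatory genes 3 were tested, 1 was called higher and 1 lower at P6, and Nos2 and Il12b had 0 counts. Ptgs2, the inducible cyclooxygenase of many cells, was at 191, 121 and 242 CPM at P1 and 199, 149 and 217 CPM at P6, Tnf at 0.537, 0.849 and 0.0804 CPM at P1 and 6.98, 7.27 and 4.93 CPM at P6 and Cxcl10 at 1.96, 3.02 and 0.804 CPM at P1 and 0.973, 0.796 and 0.557 CPM at P6. Tnf had the order of the members, lowest in the P1 β-amyrin library and higher in each P6 library than in any P1 one. Of 7 alternative activation genes 1 was tested, Il4ra, and was called higher, with Retnla at 0 counts; Il4ra was at 58.6, 66 and 53.6 CPM at P1 and 97.2, 97.8 and 84.5 CPM at P6 and Arg1 at 0.192, 0.374 and 0.322 CPM at P1 and 0.254, 0.159 and 0.477 CPM at P6. For comparison, of the 12 fibroblast markers 2 were called higher and 8 lower at P6 and 0 in the interaction test; Fn1 was at 13589, 10795 and 11486 CPM at P1 and 30105, 28955 and 30466 CPM at P6 and Col1a1 at 15011, 11859 and 14229 CPM at P1 and 12622, 9338 and 11721 CPM at P6.

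Some members share sequence or position with other genes, and the sources used here do not give how the authors' counting treated such reads. Of the exon bases of Itgam 68.7% are also annotated to a same-strand gene model, Gm49368, which held at most 0.0531 CPM. That low value does not tell whether reads in the shared bases were counted for Itgam or for neither gene. Itgam values could be too low if they were left out. Ms4a6c overlaps the antisense gene BE692007 over 53.1% of its exon bases; that gene was at 1.96, 1.05 and 0.241 CPM at P1 and 17.2, 16 and 8.32 CPM at P6, in the order of Ms4a6c itself. Alox5ap overlaps the antisense gene Gm19719 over 13.3%, which was at 4.56, 4.79 and 0.885 CPM at P1 and 31.9, 41.3 and 26.7 CPM at P6. Cd52 overlaps Crybg2 over 14.5%, which held at most 0.127 CPM. Values of Ms4a6c and Alox5ap could therefore hold reads of the partner, or the reverse, if counting ignored strand. Stretches of 50 bases were shared with relatives in 34.0% of Pirb, 18.9% of Csf2rb2, 15.4% of Lyz2, 12.3% of Csf2rb, 10.5% of Ms4a6c and 9.58% of Fcgr3. Lyz1, the relative of Lyz2, was at most 0.592 CPM, and Pira2, a relative of Pirb, at most 2.59 CPM. Ms4a6b, the relative of Ms4a6c, was at 3.38, 1.12 and 0.0804 CPM at P1 and 14.3, 9.82 and 4.50 CPM at P6, values in the range of Ms4a6c itself.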

How the data were processed

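Poly(A) RNA of 6 MEF libraries was made into libraries with a directional kit, per the labels' protocols. The submitters' processing notes name the build mm10 and HISAT2 2.1.0 and featureCounts 1.6.3, besides Trimmomatic 0.38, FastQC 0.11.7 and SAMtools 1.9. Strand and multi-mapping settings were not given in those notes. The deposited counts are whole reads per gene without normalization and entered the main tests. The authors also deposited FPKM values, scaled for length and library size, used with a pseudocount of 1 as an alternative and for Lyz2 levels.

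Counts were fitted with edgeR 4.0.16 (TMM, filterByExpr with passage as group, estimateDisp, glmQLFit, glmQLFTest) in R 4.3.3, with treatment and passage as additive terms over 6 libraries and Benjamini-Hochberg adjustment over 16962 genes. The fit left 2 residual degrees of freedom. Interaction terms pooled either both amyrins, or vehicle with α-amyrin, within a passage. Single-library ratios used a prior count of 2 and 95% exact binomial intervals, which cover counting error only. Alternatives were DESeq2 1.42.0, RLE factors, library totals, no filter, limma 3.58.1 on log2(FPKM + 1), a passage-only model, a prior count of 0.5 and leaving out each library. Scripts were tested on simulated counts.

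The members and the gene lists were chosen with earlier results of these data known. All 36 members were named; of other lists up to 3 genes of highest mean CPM and those at 0 counts throughout were named, and Spi1 and Irf8 outside that rule; some genes that the rule would name are not reported here. Coordinates matched GENCODE M21 on mm10. Members on chromosome 18 were left out of the printed sequences.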

Additional observations from a re-analysis of the deposited data

Results flagged for a closer look

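Relative to the other libraries of its passage, the β-amyrin library was lower at P1 than at P6. By edgeR's passage-by-β-amyrin term 25 of 36 members were called, against 0.536% of genes tested in that direction. By limma on log2(FPKM + 1), where the pseudocount shrinks low values, 0 members and 0 of all genes were called. Each value below is the log2 difference of the β-amyrin effect, P6 minus P1, and a positive value means a lower β-amyrin ratio at P1 than at P6. Among lysozyme and complement genes it was 2.35 for Lyz2, 3.23 for C1qa, 3.51 for C1qb, 3.53 for C1qc, 2.49 for C3ar1 and 3.19 for C5ar1. Among identity and chemokine receptor genes it was 2.83 for Adgre1, 3.09 for Ptprc, 4.20 for Cx3cr1, 2.38 for Cd14 and 2.96 for Itgam. Among Fc receptors, adaptors and paired receptors it was 2.73 for Tyrobp, 3.65 for Fcer1g, 3.15 for Fcgr1, 3.86 for Fcgr3, 2.67 for Pirb and 3.59 for Fcrls. The cytokine receptor chain called had 2.67 for Csf2rb2. Among membrane, killing, lipid mediator and cytoskeletal genes it was 3.12 for Laptm5, 2.75 for Mpeg1, 2.47 for Cd53, 3.12 for Coro1a, 3.32 for Cybb, 2.74 for Alox5ap and 3.39 for Cd84. Each rests on 1 β-amyrin library per passage, and the grouping behind the test was chosen with the low P1 values known, so these values are no independent evidence of the pattern. Lyz2 and Tyrobp lost the call under some alternatives. With 1 library per condition no condition could be searched for outlying samples.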

How the results depend on the processing

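The P6 against P1 call of 36 of 36 members was the same under every alternative run, 432 of 432 gene values and all counts, and the range without each library was 36 to 36. For the passage-by-β-amyrin term, 272 of 324 gene values kept direction and call, 20 gained a call, 28 lost it and 4 reversed. DESeq2 called 29 members, RLE factors and library totals 24 each, no low-count filter 31, and limma on log2(FPKM + 1) 0; the range without each library was 24 to 30 over the 4 fits that could be made, in which a passage left with 1 library of a group is assumed to vary like the other. Over all genes, 127 of 16962 were called in that direction with DESeq2, 90 with RLE factors and 87 with library totals. Without the filter 258 of 29952 were, and with limma 0. Under limma on log2(FPKM + 1) the term of Aif1 was -0.93, Itgam -0.17, Il10ra -0.75 and Cd86 -0.25. Without the low-count filter 23 members were called lower with β-amyrin, where 322 of 29952 genes were. In the same setting 24 were called higher with α- than with β-amyrin (351 of all genes). The passage-by-amyrin term then called 15 higher (101 of all genes). DESeq2 called 2 for α- over β-amyrin, where 81 of 16962 genes were. The cause was not tested. Without each library, members lower with β-amyrin ranged from 0 to 32 and higher from 0 to 1, higher with α-amyrin from 0 to 2, α- over β-amyrin from 0 to 32, and by the passage-by-amyrin term from 0 to 5. On log2(FPKM + 1), where the pseudocount shrinks low values, the median P6 over P1 ratio was 2.98 for vehicle, 2.95 for α-amyrin and 4.18 for β-amyrin, and at P1 β-amyrin over vehicle was -1.57 and α- over β-amyrin 1.6. No paired analysis was possible because the labels give 1 library per condition and no replicate numbers. Depth limits the P1 β-amyrin library, where 10 of 36 members had fewer than 10 counts, and Cd86, Fcgr2b and Aif1 in all P1 libraries, with 0 to 16 counts each.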
